A study of Mus musculus with 12 samples.

Results

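The effect of nilotinib (AMN107) was examined in mouse embryonic fibroblasts that had been given interferon-alpha (IFNa). The comparison sets the 2 arrays titled AMN107-IFNa against the 2 arrays titled IFNa, 4 of the 12 arrays in the series, and they were chosen by title alone. Because IFNa replicate 2 had lost signal at the 5′ ends of its control transcripts, every change was also checked against IFNa replicate 1 alone.

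The cells, called a cell line by the labels, were grown in medium with 10% heat-inactivated serum, given AMN107 or not, and then stimulated with an interferon for 6 h. Total RNA (6 ug) was biotin-labelled and hybridised to Affymetrix arrays. The AMN107-IFNa group had both agents, and the IFNa group had interferon with no mention of a vehicle. The other groups, 2 arrays each, were DMSO, IFNg (interferon-gamma), AMN107 alone and AMN107-IFNg. The labels give no dose or length of treatment for AMN107, no interferon dose and no strain or genotype. Replicates are described as biological, but whether they came from separate cultures is not said, so p-values measure only the spread between such arrays.

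Nilotinib occupies the ATP site of the ABL tyrosine kinases and also inhibits the PDGF receptors, KIT and the discoidin-domain receptors. Type I interferons such as IFNa act through a receptor, the kinases JAK1 and TYK2, and transcription factors that bind interferon-stimulated response elements upstream of antiviral genes. Fibroblasts answer interferon readily, and they also make collagen, receive PDGF signals and synthesise their own cholesterol under the control of the factor SREBP2.

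IFNa replicate 2 stood apart from the other 11 arrays. Its 5′ to 3′ signal ratio was 0.0252 for GAPDH and 0.212 for actin, while the GAPDH ratio was 1.09 on IFNa replicate 1 and 1.12 and 1.15 on the AMN107-IFNa arrays. The actin ratio also differed slightly between the remaining arrays, with 0.696 on IFNa replicate 1 against 0.83 and 0.798 with AMN107. The replicates of the IFNa group differed with an SD of 0.401 (log2) over all genes, against 0.119 to 0.144 in the other groups. The part of RNA quality in any result below was not tested beyond the check against replicate 1. Of 14 fibroblast markers 10 lay above the array median on all 12 arrays, and Thy1, Lum and Fap lay below it on all of them. Of 12 leukocyte markers on the array, 6 lay below the median on all arrays (Ptprc, Adgre1, Itgam, Lyz1, Aif1 and Ncf1). Another 3 lay above it on all arrays.

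AMN107 changed the transcript levels of many genes in the IFNa-treated cells, most of them by less than 2-fold. Of 12188 genes tested, 3173 (26.0%) passed an adjusted p of 0.05, 1375 (11.3%) higher and 1798 (14.8%) lower with AMN107 (limma, Benjamini-Hochberg). The fit without IFNa replicate 2 called 4212 genes (34.6%), and 2729 of the 3173 (22.4% of those tested) were called again in the same direction, 1210 higher (9.93%) and 1519 lower (12.5%). At least 2-fold changes numbered 231 (1.9%), 137 higher (1.12%) and 94 lower (0.771%), and 140 of these (1.15%) were also 2-fold against replicate 1 alone, 82 higher (0.673%) and 58 lower (0.476%). Both AMN107-IFNa arrays lay above both IFNa arrays for 3124 genes (25.6%) and below both for 3604 (29.6%). Values are log2 of (signal + 8.66), so a difference of 1 is a 2-fold change of that sum, which understates the change of dim genes. The median difference over all genes was -0.01. Only 98 genes were called when the fit used these 4 arrays alone, and array weights left 988. Those weights were 0.149 for both IFNa arrays against 1.444 for both AMN107-IFNa arrays. With 2 arrays and 1 mean per group they must be equal within a group, so they could not single out replicate 2. Without AMN107-IFNa replicate 1 the count was 1333, without AMN107-IFNa replicate 2 it was 1773, and it rose to 6189 when IFNa replicate 1 was dropped and the array with the 5′ loss was the sole control.

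**Figure D1:**
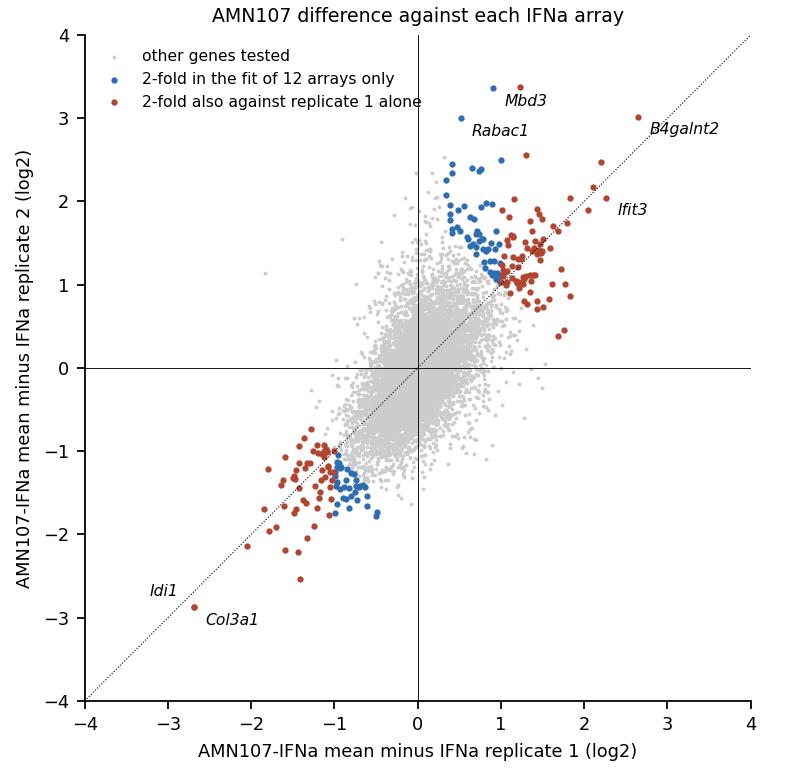
Each point is 1 of 12188 genes; the horizontal axis gives the mean of the AMN107-IFNa arrays minus IFNa replicate 1 and the vertical axis minus IFNa replicate 2, both in log2 of (signal + 8.66). Red points are 2-fold in the 12-array fit and against replicate 1 alone, blue points only in the 12-array fit; B4galnt2, Ifit3, Idi1 and Col3a1 lie near the dotted line of equal values, while Mbd3 and Rabac1 lie far above it.

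Both differences use the same AMN107-IFNa arrays, so their likeness across genes is partly built in, and they are compared only to show where the IFNa arrays part. The spread of the differences over all genes was 0.344 (SD) against replicate 1 and 0.485 against replicate 2. Of the 231 genes called with a 2-fold change, 117 were 2-fold against each IFNa array singly.

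The transcripts that rose most with AMN107 included the antiviral genes Ifit3 and Rsad2, which are described below, and enzymes of mitochondria. B4galnt2, a glycosyltransferase of carbohydrate blood-group antigens, had signals of 44.1 and 32.2 on the IFNa arrays and 316 and 329.6 on the AMN107-IFNa arrays, always with replicate 1 first. The difference was 2.83 (SE 0.14, adjusted p = 1.36e-06 by limma). The largest rises and falls were picked only from genes whose arrays did not overlap, so that trait is no added support for them. Other probe sets for B4galnt2 gave 1.25, 0.86 and -0.06, so its size depends on the probe set. Iah1, an esterase, gave 336 and 277 on the IFNa arrays and 1526 and 1636 on the AMN107-IFNa arrays, a difference of 2.34 (SE 0.10). Another probe set gave 1.98, and a dimmer one gave -0.11. Both genes were far above either control array by the brighter probe set.

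Car6, a secreted carbonic anhydrase, rose from 11.7 and 10.8 to 81.3 and 76.3. Its control signals were close to the bottom of the scale, and the difference was 2.13 (SE 0.08, adjusted p = 5.45e-07 by limma). Car6 passed the filter only through arrays with AMN107, so the separation of its arrays is partly built in. Aldh1l2, a mitochondrial enzyme of the folate cycle, rose from 349 and 388 to 1457 and 1489, and Atf5, a stress-induced transcription factor, from 344 and 138 to 867 and 849.8. The IFNa arrays were far apart for Atf5, which had a difference of 1.93 over both and of 1.30 against replicate 1. Echs1, an enoyl-CoA hydratase of mitochondrial fatty acid oxidation, rose from 150.4 and 106 to 434 and 409. Acot2, a mitochondrial acyl-CoA thioesterase, rose from 166 and 155 to 499 and 558. The differences of Echs1 and Acot2 were 1.67 and 1.67 on the log2 scale. Babam2, a subunit of a deubiquitinating complex that works at DNA breaks, rose from 131 and 136 to 485 and 467. Its other probe sets gave 3.52 and -0.02. The class I-like gene H2-Bl rose from 20.5 and 21.3 to 66.8 and 108.

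For 4 of the 15 largest rises the difference was much smaller against replicate 1 alone. Mbd3, a subunit of a nucleosome-remodelling complex, had 339.9 and 54.8 on the IFNa arrays and 656 and 633 on the AMN107-IFNa arrays. The difference was 2.14 over both arrays and 0.91 against replicate 1. Rabac1, which acts in vesicle traffic, had 922 and 158 on the IFNa arrays and 1362 and 1289 on the AMN107-IFNa arrays, a difference of 1.76 against 0.52. The kinase Dapk3 gave 1.75 against 1.0, with its second probe set at 0.09. The membrane protein gene Tmem120a gave 2.31 against 1.23. All 15 were called with array weights, and 12 were at least 2-fold against replicate 1 alone. In the fit of 4 arrays 10 remained called, the exceptions being Tmem120a, Mbd3, Atf5, Rabac1 and Dapk3. Mbd3 lost its call without either AMN107-IFNa array, with adjusted p up to 0.092 by limma. Rabac1 lost it without any 1 of the 10 arrays outside the IFNa group, with adjusted p up to 0.162 by limma.

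The largest falls included 4 enzymes of cholesterol synthesis and a collagen. Idi1, an isomerase that readies isoprenoid units for sterol synthesis, fell from 1609.8 and 1828 to 231 and 253. The difference was -2.78 (SE 0.11, adjusted p = 5.45e-07 by limma). Col3a1, a fibrillar collagen chain, fell from 831 and 948 to 125 and 119, a difference of -2.78 (SE 0.14). Against replicate 1 alone Idi1 gave -2.69 and Col3a1 -2.68. Scd2, a fatty acid desaturase, fell from 1735 and 1954 to 466 and 531 by this probe set, while its other probe sets gave -0.33 and -0.46.

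Among surface and secreted proteins, Cldn9, a tight-junction claudin, fell from 195 and 209 to 36.7 and 44.7 (another probe set gave 0.33). Nrp1, a co-receptor for semaphorins and VEGF, fell from 217 and 261 to 65.9 and 78.8 (others gave -1.22, -1.18 and, at low signal, -0.01). Slc38a4, an amino acid transporter, fell from 429 and 712 to 156 and 177. Phex, an endopeptidase of phosphate balance, fell from 118 and 184 to 35.3 and 31.5 (another gave -0.09). The receptor-like kinase Styk1 fell from 88.4 and 157 to 23.4 and 31.4. Depdc1a, which is expressed in dividing cells, fell from 176 and 393 to 53.9 and 68.0. IFNa replicate 2 was the higher control for all 6, by more than 1.5 times for Depdc1a, Styk1, Slc38a4 and Phex. All 12 largest falls stayed at least 2-fold against replicate 1 and were called with array weights, and 9 were called in the 4-array fit, without Depdc1a, Styk1 and Slc38a4.

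**Figure D2:**
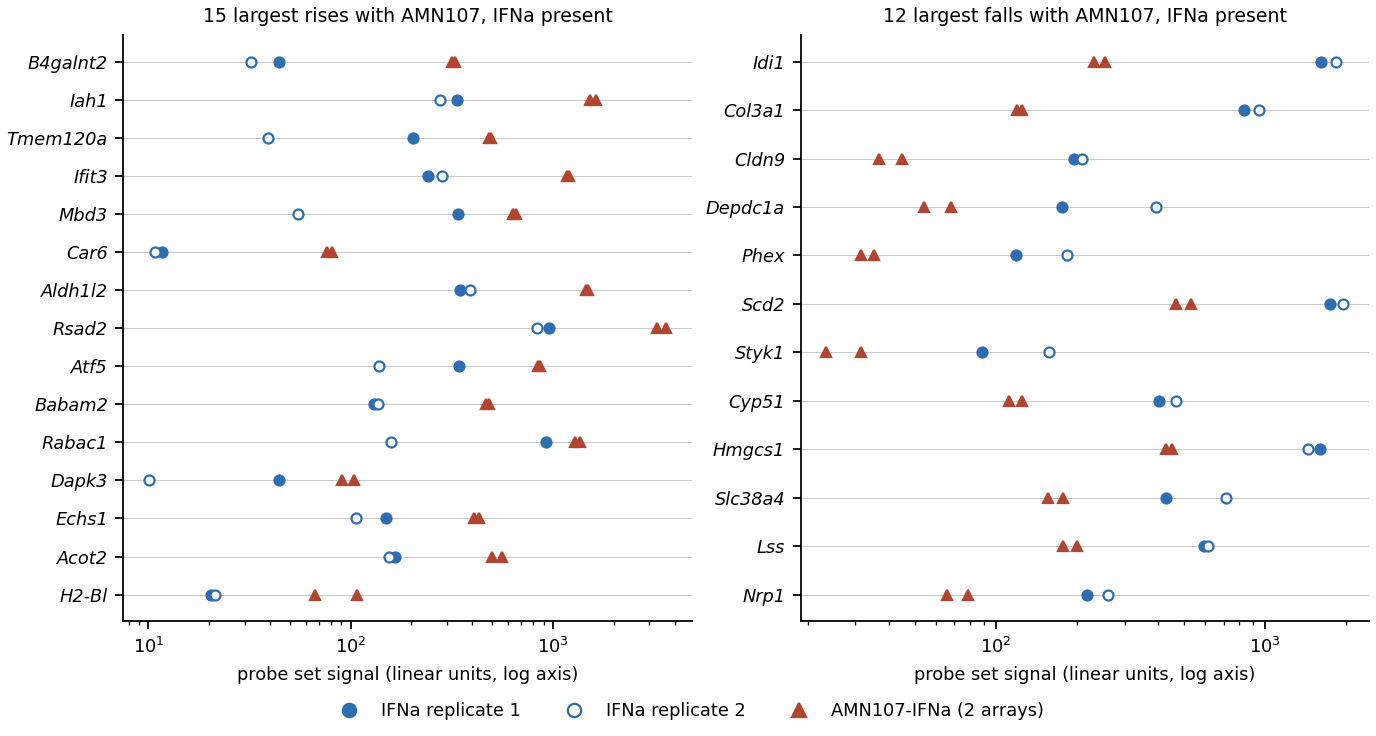
Probe set signals on a log axis for the 15 largest rises (left) and 12 largest falls (right) that were called in both fits and whose arrays did not overlap. Filled circles are IFNa replicate 1, open circles IFNa replicate 2 and triangles the 2 AMN107-IFNa arrays; the circles lie close together for genes such as Ifit3, Car6 and Idi1 and far apart for Tmem120a, Mbd3, Rabac1 and Dapk3.

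The 140 genes with 2-fold changes in both fits also moved with AMN107 in the states that share no arrays with this comparison. All 82 that rose were called higher in AMN107 against DMSO (background 20.7%), 75 of them at least 2-fold, and 72 were called higher in AMN107-IFNg against IFNg (background 13.4%), 52 at least 2-fold. All 58 that fell were called lower without interferon (31 at least 2-fold, background of lower calls 14.0%), and 54 were called lower with IFNg (29 at least 2-fold, background of lower calls 5.76%). The background is the share of all genes called that way. None of the 140 was called in the opposite direction in either state. The median difference of the rising genes was 1.29 with IFNa, 1.54 without interferon and 1.15 with IFNg. For the falling genes it was -1.33, -1.03 and -0.99. Of the 82 rising genes 21 were themselves at least 2-fold higher in IFNg than in DMSO, and of the 58 falling genes 0 (background 1.28%). Read from the other side, 264 genes (2.17% of those tested) were at least 2-fold higher in AMN107 than in DMSO, and 209 of them (79.2%) were called higher with IFNa, 95 at least 2-fold (36.0% of the 264 and 69.3% of the 137). Of the 36 genes (0.295%) at least 2-fold lower without interferon, 35 were called lower with IFNa and 32 at least 2-fold (88.9% of the 36 and 34.0% of the 94). Of the 132 genes (1.08%) at least 2-fold higher in AMN107-IFNg than in IFNg, 111 (84.1%) were called higher with IFNa, and of the 39 (0.32%) at least 2-fold lower, 38 (97.4%) were called lower.

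Among interferon-stimulated antiviral genes many were higher with AMN107, a few were lower and the rest did not pass the test. Of 55 antiviral effectors listed, 50 were on the array and 47 were tested. Of these 19 rose and 5 fell, beside 11.3% of all genes higher and 14.8% lower. A difference from those shares was not tested. The median difference was 0.18 (0.25 against replicate 1) beside -0.01 over all genes. All 19 rises and 3 of the 5 falls were also called against replicate 1, and 12 members were called higher without AMN107-IFNa replicate 2. In the 4-array fit 6 were, beside 58 of all 12188 genes. To place them beside their upstream DNA, the 250 bases before the start are shown for an antiviral gene with a large rise, for another such gene and for a gene whose level did not pass the test. Capitals mark the response element pattern GAAA, then any 2 bases, then GAAA, searched on both strands.

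Ifit3: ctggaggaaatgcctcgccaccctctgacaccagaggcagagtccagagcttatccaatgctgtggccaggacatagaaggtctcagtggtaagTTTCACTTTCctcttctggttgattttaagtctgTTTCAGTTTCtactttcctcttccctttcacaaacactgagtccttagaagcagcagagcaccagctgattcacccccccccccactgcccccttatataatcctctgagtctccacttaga
Rsad2: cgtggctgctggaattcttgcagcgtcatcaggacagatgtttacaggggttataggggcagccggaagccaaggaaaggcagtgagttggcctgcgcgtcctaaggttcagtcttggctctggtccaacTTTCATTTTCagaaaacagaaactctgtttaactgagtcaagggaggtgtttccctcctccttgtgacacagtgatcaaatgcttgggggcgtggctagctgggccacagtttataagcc
Gbp2: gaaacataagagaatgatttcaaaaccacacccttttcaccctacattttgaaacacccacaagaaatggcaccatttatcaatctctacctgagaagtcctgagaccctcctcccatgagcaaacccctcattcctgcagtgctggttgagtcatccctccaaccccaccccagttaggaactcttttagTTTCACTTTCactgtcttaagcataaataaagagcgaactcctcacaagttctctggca

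These are RefSeq sequences of GRCm38.p6, at chr19:34583279-34583528 (plus strand) for Ifit3, chr12:26456453-26456702 (minus strand) for Rsad2 and chr3:142620413-142620662 (plus strand) for Gbp2. Ifit3 has 2 matches, ending 147 and 113 bases before the start, Rsad2 has 1 at 111 and Gbp2 1 at 50. The pattern occurred in 3.46% of the upstream sequences of 27025 genes in the table, and for 2.97% of the tested genes with a sequence. It was present for 10 of 65 genes (15.4%) that had a sequence among those 2-fold higher in both fits, and for 0 of 45 among those 2-fold lower. Within the antiviral list it was present for 5 of 14 genes that rose, for 6 of 18 that were not called and for 0 of 4 that fell. A match of letters is a description and not evidence of binding.

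Ifit3, which binds viral RNA together with its family members, had signals of 241 and 282 on the IFNa arrays and 1179 and 1207 on the AMN107-IFNa arrays. The difference was 2.16 (SE 0.15, adjusted p = 1.21e-05 by limma) and 2.27 against replicate 1. Rsad2 (viperin), which makes a chain-terminating nucleotide, rose from 960.4 and 834 to 3266 and 3644. Ifit1, which recognises RNA caps, rose from 767 and 853 to 2280.3 and 2373, and Mx2, a dynamin-like antiviral GTPase, rose from 56.6 and 59.8 to 159.9 and 177. The differences of these 3 were 1.94, 1.51 and 1.41. For each of the 4 genes both AMN107-IFNa arrays lay above both IFNa arrays, which the choice of the largest rises required of Ifit3 and Rsad2. All 4 remained called in the 4-array fit. The 5 members that fell, given because they are few, were Oas2 (-0.52), Sp100 (-0.69), Lgals3bp (-0.38), Ifi44l (-0.43) and Samd9l (-0.36). Oas2, a synthetase of the RNase L pathway, had 284 and 278 on the IFNa arrays and 193 and 194 on the AMN107-IFNa arrays, with no overlap. Ifi44l and Samd9l lost the call against replicate 1.

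The interferon-inducible GTPases attack the vacuoles of intracellular pathogens. Of 19 listed, 11 were on the array and 10 tested, and 5 rose and 0 fell, beside 11.3% and 14.8% of all genes. Their median difference was 0.30. Ifi47 rose from 85.8 and 136 to 285 and 279, Irgm1 from 250.2 and 428 to 755 and 778, Igtp from 414 and 386 to 934 and 900.0 and Irgm2 from 149.7 and 165 to 321 and 316. The differences were 1.31, 1.20, 1.18 and 0.98, and all arrays of the AMN107-IFNa group were higher for each. Gbp6 was the fifth, at low signals (0.42). Gbp2, another GTPase of this family, had 556 and 584 on the IFNa arrays and 550.4 and 600.0 on the AMN107-IFNa arrays, a difference of 0.01 (SE 0.14). Its control and treated arrays overlapped, and a second probe set gave -0.20.

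Of 18 interferon signalling genes tested, of 19 listed, 4 rose and 2 fell, all 6 also against replicate 1, beside 11.3% of all genes higher and 14.8% lower. Stat2, a transcription factor of the type I interferon pathway, rose from 36.9 and 41.5 to 95.2 and 94.0, a difference of 1.11 (SE 0.15, adjusted p = 0.000602 by limma). Irf7, which amplifies type I interferon, rose from 542 and 279 to 786 and 779, by 0.99 over both arrays and 0.52 against replicate 1. The kinase gene Jak2 (0.37) and Irf3 (0.33) rose less. Stat3 fell from 171 and 178 to 112 and 127 and the interferon-gamma receptor gene Ifngr1 from 170.0 and 189 to 128 and 114. Among 10 inhibitors of the pathway, Socs1 rose from 44.3 and 24.8 to 77.2 and 78.4 and Socs3, which restrains gp130 cytokine receptors, fell from 106.27 and 139.11 to 52.97 and 57.61. Their differences, 1.04 and -1.03, were of similar size and opposite sign, and the other 8 did not pass the test (Dusp1 -0.31, Ptpn1 -0.27).

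The list of sensors of foreign nucleic acid also held genes of other roles, among them Tlr4 and Myd88. Of its 15 tested members (20 listed), 4 fell and 1 rose, beside 14.8% lower and 11.3% higher over all genes. Their median was -0.09 (-0.14 against replicate 1). Dhx58 (LGP2), a regulator of RNA sensing, fell from 241 and 267 to 158 and 155, a difference of -0.67 (SE 0.15). Dimmer probe sets gave -0.09 and 0.15. Ifih1 (MDA5), a sensor of long double-stranded RNA, fell from 1318 and 1433 to 1069.5 and 1061. Tlr4, the lipopolysaccharide receptor gene, had a difference of -0.61 over both IFNa arrays and -0.29 against replicate 1. The adaptor Myd88 fell by 0.30 on the log2 scale, and the DNA sensor gene Cgas rose (0.33). Sting1 had -0.53 and did not pass (adjusted p = 0.0854 by limma).

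For antigen presentation on MHC class I, 7 of 15 tested members (22 listed) rose and 1 fell, beside 11.3% and 14.8% of all genes. The median was 0.30 (0.13 against replicate 1). Psmb9 and H2-M3 lost the call against replicate 1. The largest difference, 0.75, was that of Pdia3, a disulfide isomerase of the peptide-loading complex, with signals from 1093 and 1237 to 2048 and 1877. Nlrc5, the transactivator of class I genes, rose from 76.7 and 95.5 to 134 and 129. The classical heavy chains H2-D1 (0.54) and H2-K1 (0.42) rose, and the loading chaperone gene Tapbp fell (-0.44), values chosen after they were seen. Calr had 0.54 with an adjusted p of 0.0584 by limma, and only 0.13 against replicate 1.

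Among secreted signals, 6 of 22 tested chemokines and cytokines (36 listed) rose and 1, Ccl8, fell at low signals. For this list and the next, the shares over all genes were 11.3% higher and 14.8% lower. Il6, the ligand of the gp130 receptor complex, rose from 14.2 and 13.1 to 38.4 and 53.5. Its control signals lay below the array medians of 21.3 and 20.6, and only arrays with AMN107 brought it past the filter. The separation of its arrays is thus partly built in. Cxcl10, a chemokine for T cells that interferon induces, rose from 1422 and 1149.6 to 2781 and 3080.3. Il15, a growth factor of NK cells, rose from 54.0 and 49.6 to 104 and 120.2, and Cxcl12, the ligand of CXCR4, from 40.9 and 44.5 to 74.4 and 66.1. The differences were 1.27, 1.19 and 0.62 for Il6, Cxcl10 and Cxcl12, and 1.24, 1.04 and 0.67 against replicate 1. Il15 gave 0.94 against replicate 1. Of 19 tested NF-kappaB subunits and targets 7 fell and 4 rose. Against replicate 1, 6 of the falls and 1 of the rises were called. Nfkbie, an inhibitor of NF-kappaB, fell from 119.7 and 152 to 66.5 and 74.5. Birc3, an inhibitor of cell death, fell from 150.0 and 185 to 94.8 and 89.2. Vcam1, an adhesion molecule, gave -0.64 by its brightest probe set but 0.39 and 0.29 by the others. The acute-phase gene Saa3 rose (0.92).

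**Figure D3:**
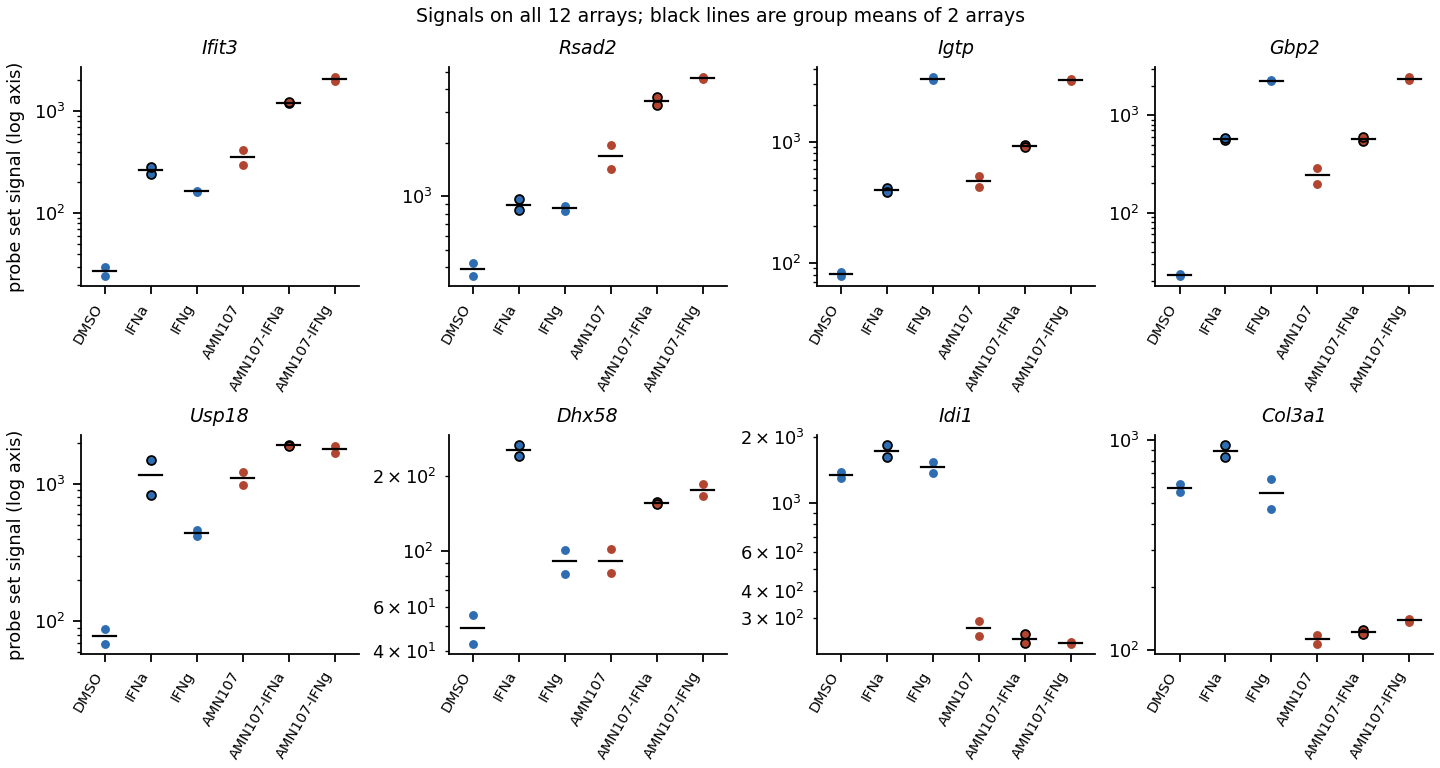
Probe set signals (log axis) on all 12 arrays for 8 genes, with each group's mean of 2 arrays as a black line, blue for arrays without and red for arrays with AMN107, and black outlines on the arrays compared here. The red IFNa arrays lie above the blue for Ifit3, Rsad2 and Igtp, level for Gbp2, and below for Dhx58, Idi1 and Col3a1.

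Whether the AMN107 effect with IFNa differed from that in the other states was tested directly as a difference of differences. Against the effect without interferon, 25 genes (0.205% of 12188) were called, and in all 25 the value with IFNa was the lower. The median of this difference over all genes was -0.07, and 0.10 after median centring, where all 21 genes called were again lower. The count was 11 to 14 without DMSO replicate 1 or 2, AMN107 replicate 2 or either AMN107-IFNa array, 80 without IFNa replicate 2 and 5771 without IFNa replicate 1. Of the antiviral list 13 of 47 were among them, of the GTPases 5 of 10 and of the sensor list 2 of 15. Of the cholesterol, ATF4, collagen and cell cycle lists 0 were, which is near the 0.205% over all genes.

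Gbp2 had signals of 22.5 and 23.6 in DMSO, 197 and 289 with AMN107 alone, 556 and 584 with IFNa and 550.4 and 600.0 with both. AMN107 thus raised it without interferon (2.96) and not detectably with IFNa (0.01), and the effects differed by -2.95 (SE 0.20, adjusted p = 0.000192 by limma). Usp18, a protease that removes ISG15 and dampens the receptor, had 68.6 and 88.5 in DMSO, 986 and 1232 with AMN107, 832 and 1505 with IFNa and 1921 and 1898 with both. Its effect was 3.68 without interferon and 0.77 with IFNa, where the IFNa arrays were far apart. Gbp2b went from 2.46 to -0.27 and Mndal, of the family of DNA-binding interferon proteins, from 2.39 to -0.09. Over the main and alternative settings the effect with IFNa ran from -0.55 to 0.0 for Gbp2b and from -0.28 to 0.03 for Mndal. For Usp18 it ran from 0.34 to 1.19. Dhx58 rose without interferon (0.80) and fell with IFNa (-0.67), as did Ifih1 (0.41 and -0.36) and Oas2 (0.51 and -0.52). The groups share the same spread estimate but no arrays. For comparison, the median AMN107 effect on the antiviral list was 1.01 without interferon, 0.73 with IFNg and 0.18 with IFNa. On the GTPases it was 2.20, -0.04 and 0.30.

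**Figure D4:**
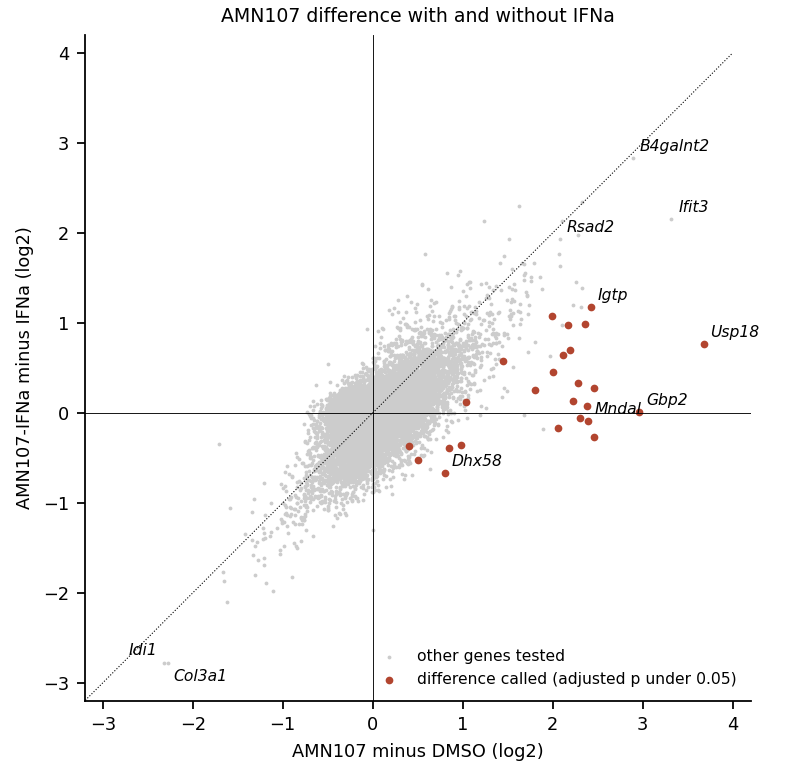
Each point is a gene; the horizontal axis is AMN107 minus DMSO and the vertical axis AMN107-IFNa minus IFNa, in log2 of (signal + 8.66), with the dotted line marking equal values. The 25 red genes, whose difference between the effects was called, all lie below that line, with Gbp2 and Mndal near 0 on the vertical axis; Idi1 and Col3a1 lie at the lower left and B4galnt2 at the upper right.

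Against the effect with IFNg, 56 genes (0.459%) were called, 20 with the higher and 36 with the lower value under IFNa. That split depended on the scaling, with 25 higher and 21 lower after median centring, 24 and 27 after quantile normalization, and 18 and 15 with array weights. This count was 5 to 26 without any 1 of the 10 arrays outside the IFNa group, 1288 without IFNa replicate 2 and 4946 without IFNa replicate 1. The effect was lower with IFNa for Ifi44l (-0.43 against 1.94), Phf11d (-0.58 against 1.80), Mx1 (0.03 against 1.79) and Trim30a (-0.17 against 1.53). It was higher with IFNa for Igtp (1.18 against -0.03), a GTPase already at 3399 and 3238 on the IFNg arrays and at 414 and 386 on the IFNa arrays. Arpc4, a subunit of the actin-nucleating ARP2/3 complex, gave 1.45 against -0.12, and Aamp gave 1.08 against -0.03. BC023105, at signals near the bottom of the scale, gave 0.36 against -1.68. Of 156 genes (1.28%) at least 2-fold higher in IFNg than in DMSO, a set chosen without any array of this comparison, 68 (43.6%) were higher with AMN107 in the IFNa-treated cells and 10 (6.41%) lower, with a median of 0.36, beside 11.3% of all genes higher and 14.8% lower.

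Transcripts of most cholesterol synthesis enzymes were lower with AMN107. Of 20 enzymes listed, 17 were on the array and all were tested: 13 fell and 0 rose, beside 14.8% and 11.3% of all genes. The median difference was -1.37 (-1.48 against replicate 1) beside -0.01 over all genes. All 13 were called again against replicate 1 and 8 in the 4-array fit. That 4-array fit called 40 of all 12188 genes lower. The upstream sequences of 3 of the enzymes are shown because the pathway fell as a group. Capitals mark the CCAAT box (CCAAT, searched on both strands, so that ATTGG is its reverse), an element found beside SREBP sites in sterol genes.

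Idi1: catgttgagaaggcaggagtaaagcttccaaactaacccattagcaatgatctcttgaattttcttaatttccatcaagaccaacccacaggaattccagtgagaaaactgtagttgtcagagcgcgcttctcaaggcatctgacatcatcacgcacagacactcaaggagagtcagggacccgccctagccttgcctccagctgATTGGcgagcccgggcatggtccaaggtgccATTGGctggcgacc
Hmgcs1: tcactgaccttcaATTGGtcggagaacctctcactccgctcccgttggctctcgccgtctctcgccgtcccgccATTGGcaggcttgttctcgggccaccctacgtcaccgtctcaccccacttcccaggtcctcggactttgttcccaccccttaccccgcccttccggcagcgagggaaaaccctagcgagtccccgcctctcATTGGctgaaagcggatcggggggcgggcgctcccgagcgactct
Cyp51: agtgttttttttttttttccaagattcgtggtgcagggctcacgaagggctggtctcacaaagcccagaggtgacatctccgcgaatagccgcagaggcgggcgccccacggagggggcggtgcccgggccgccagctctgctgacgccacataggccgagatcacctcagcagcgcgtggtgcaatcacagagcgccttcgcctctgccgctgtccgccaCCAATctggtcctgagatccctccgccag

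They lie at chr13:8885356-8885605 (plus strand), chr13:119690101-119690350 (plus strand) and chr5:4104698-4104947 (minus strand) of GRCm38.p6, from RefSeq. Idi1 has 2 matches, ending 41 and 10 bases before the start, Hmgcs1 has 3 (233, 172 and 41) and Cyp51 1 (25). The box occurred for 37.5% of all genes in the table and for 40.1% of the tested genes with a sequence. It was present for 51.1% of such genes 2-fold lower in both fits and for 46.2% of those 2-fold higher. It occurred for 11 of 11 fallen enzymes with a sequence and for 3 of 3 that were not called. A sterol element pattern, TCACNCCAC on either strand, occurred for 1.22% of all genes and for 1 of the 11 fallen enzymes, Hmgcs1.

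Hmgcs1, which commits acetyl units to the mevalonate pathway, fell from 1605 and 1439 to 427 and 451, a difference of -1.77 (SE 0.09, adjusted p = 1.36e-06 by limma). Its other tested probe sets gave -2.17, -2.21 and -1.56, and a dim one below the filter gave -0.51. Idi1, given above, fell most. Lss, which closes the sterol rings, fell from 590.2 and 615 to 200.2 and 178. Cyp51, the lanosterol demethylase, fell from 403 and 466 to 112 and 125, with other probe sets at -2.38 and, at lower signal, -0.79. For each of the 4 enzymes the AMN107-IFNa arrays lay below both IFNa arrays, as their choice among the largest falls required. Sqle, the squalene epoxidase, named after its values were seen, fell from 1629 and 2641 to 783 and 759.5 and illustrates a control pair far apart, with -1.42 over both and -1.07 against replicate 1. The pathway's medians in the other states were -1.03 without interferon and -1.38 with IFNg, and 0 of the 17 enzymes passed the test of the difference from either state.

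Of 11 tested genes for sterol control, uptake and efflux (17 listed), 4 fell, also against replicate 1, and the 1 rise, Apoe, was lost there. Insig1, which retains the SREBP complex in the endoplasmic reticulum and is itself an SREBP target, fell from 339 and 387 to 142 and 151. Srebf2, which encodes SREBP2, fell from 207 and 237 to 104 and 101. Stard4, a carrier of sterol, fell from 356 and 335 to 156 and 169, and Abcg1, an exporter of cholesterol, from 55.3 and 93.1 to 33.1 and 36.4. Their differences ran from -1.26 for Insig1 to -0.89 for Abcg1. For this list and the next, 14.8% of all genes were lower and 11.3% higher. Of 17 fatty acid synthesis genes 4 fell and 1, Me1, rose (0.42). Beside Scd2, these were Elovl6, an elongase, from 497 and 584 to 249 and 233, Scd1, a desaturase, from 389.6 and 462 to 239 and 219, and Acly, which makes cytosolic acetyl-CoA, from 1124 and 1328 to 795 and 778. The arrays of the groups did not overlap for any of the 4, which the choice of the largest falls required of Scd2.

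The drug's own targets were measured as transcripts. Abl1 had signals of 166 and 159 on the IFNa arrays and 136 and 137 on the AMN107-IFNa arrays. The difference, -0.24 (SE 0.08), missed the threshold (adjusted p = 0.0507 by limma), although no arrays overlapped. Abl2 had 494 and 544 on the IFNa arrays and 494 and 488 on the AMN107-IFNa arrays, a difference of -0.08 that another probe set put at 0.98. Of 16 ABL partners 5 fell and 1 rose, beside 14.8% and 11.3% of all genes. Abi2, an ABL interactor of the WAVE complex, fell from 264 and 427 to 194 and 179, and Bcar1, the adaptor p130Cas, from 632 and 534 to 415 and 430.4. The adaptor Nck1 rose from 115 and 118 to 188 and 177. Abi1 gave -0.43 and did not pass.

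Of 11 tested receptors and kinases that nilotinib binds (16 listed), 3 fell and 0 rose, beside 14.8% and 11.3% of all genes. A difference from those shares was not tested. Pdgfrb, the PDGF receptor beta chain, fell from 117 and 119 to 31.6 and 45.6, a difference of -1.43 (SE 0.17, adjusted p = 0.000326 by limma). A second probe set gave -0.31. Ddr1, a collagen receptor kinase, fell from 269 and 245 to 123 and 118 by the probe set used, while others ran from -0.89 to 0.41. The stress kinase gene Map3k20 fell from 270.5 and 269.9 to 160.4 and 150.4. Pdgfra (0.16), Ddr2 (-0.07), Csf1r (0.09) and Epha2 (-0.21) did not pass, and their intervals leave room for small changes (SE 0.14, 0.10, 0.09 and 0.09). Kit did not pass the filter on low signals.

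Of 12 feedback genes of the ERK pathway 3 rose and 2 fell, beside 11.3% and 14.8% of all genes, so the falls were near their share. The phosphatase genes Dusp4, from 163 and 132 to 306 and 301, and Dusp5, from 145 and 184 to 278 and 252, rose. Spred2, an inhibitor of RAF activation, fell from 294 and 357 to 208 and 229, and the survival gene Ier3 fell from 2382 and 1767 to 1466 and 1497. Of 22 immediate early factors 6 rose and 5 fell, beside the same shares. Klf6 rose from 209.6 and 308 to 734 and 693 by its brightest probe set, and another bright one gave 0.95, but a further 3 gave -0.58, -0.23 and -0.25, and the mean over probe sets did not pass (0.40). Ier2 rose from 259 and 356 to 728 and 629.9 and Klf4 from 251 and 247 to 358 and 384, while the AP-1 subunit gene Fosl2 fell from 176 and 178 to 115 and 125. Of 19 SRF and YAP targets 3 rose and 4 fell, near the shares over all genes (11.3% and 14.8%). Ankrd1, a common YAP target, rose from 402 and 396 to 1164 and 1088, with another probe set at 0.45. The effect on Ankrd1 was 0.46 with IFNg, lower by the test of the difference (adjusted p = 0.0279 by limma). Lats2, a kinase that inhibits YAP, fell from 108 and 94.0 to 55.0 and 69.1. Flna (0.40) and Amotl2 (-0.35) did not pass.

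Of 17 collagen genes 6 fell and 2 rose, with 4 and 2 also called against replicate 1. The shares over all genes were 14.8% lower and 11.3% higher. Among the collagens Col3a1 stood far from the rest. Next came Col8a1, a short-chain collagen, which fell from 1019 and 1006 to 522 and 536. For the basement membrane chains Col4a5 and Col4a1 the difference came mostly from the second IFNa array, with -0.67 and -0.45 over both and -0.28 and -0.20 against replicate 1. Of 19 other matrix and collagen-processing genes 5 fell and 0 rose. Pcolce, an enhancer of procollagen cleavage, fell from 1792 and 1893 to 1015 and 1174, and Bgn (biglycan) from 791 and 828 to 477 and 481. Efemp1 also fell (-0.51), and Fn1 (fibronectin) had 0.52 with adjusted p = 0.0866 by limma. Among 12 proteases and inhibitors 2 rose and 2 fell, also near the shares over all genes (11.3% and 14.8%). The urokinase receptor gene Plaur had 697 and 312 on the IFNa arrays and 960.0 and 1035 on the AMN107-IFNa arrays, a difference of 1.08 over both and 0.51 against replicate 1. Mmp14 fell from 171 and 227 to 126 and 130.3 by its brightest probe set (others gave 0.15 and 0.03). Timp2, which inhibits MMP14, had 1430.3 and 1053 on the IFNa arrays and 932 and 933 on the AMN107-IFNa arrays, and its call was lost after quantile normalization, after median centring, with the mean over probe sets (adjusted p = 0.232 by limma) and without any 1 of 8 arrays. Its brighter other probe sets gave -0.28, -0.20 and -0.43, and the dimmest gave 0.15 and 0.14. Adamts1 rose (0.34).

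Transcripts of the amino acid and one-carbon genes controlled by ATF4 rose for 16 of 32 tested members (36 listed), and 1 fell, all also against replicate 1, with a median of 0.34. Over all genes 11.3% were higher and 14.8% lower. With array weights 10 members of the list were called higher, beside 524 of all 12188 genes. In the 4-array fit 2 were, beside 58 of all genes. Cth, of the transsulfuration pathway, rose from 381 and 653 to 1433 and 1213. Psph, the last step of serine synthesis, rose from 1058 and 996 to 2154 and 2328. Atf4 itself, named after its values were seen, rose from 3019.6 and 2912 to 4305 and 4231, a difference of 0.52 (SE 0.06). Ddit4, an inhibitor of mTORC1 and the only member that fell, had 408 and 238 on the IFNa arrays and 178 and 162 on the AMN107-IFNa arrays.

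Of 22 endoplasmic reticulum chaperones and unfolded protein response genes 9 rose and 3 fell, and 1 fall was also called against replicate 1. Beside this list and the autophagy and lysosomal lists below, 11.3% of all genes rose and 14.8% fell. Pdia6, a disulfide isomerase, rose from 613 and 524 to 1264 and 1225. Hsp90b1 (GRP94) had 959.9 and 1717 on the IFNa arrays and 1978 and 2146 on the AMN107-IFNa arrays, 0.68 over both and 1.09 against replicate 1, and another probe set gave -0.41. Herpud1, of the degradation machinery, fell from 425 and 555 to 319 and 300.3. Of 19 autophagy genes 5 rose and 2 fell. Sqstm1 (p62), a cargo receptor, rose from 574 and 557 to 1718 and 1585, a difference of 1.53 (SE 0.07, adjusted p = 1.36e-06 by limma). The ATG8-family genes Map1lc3a, from 500.4 and 395 to 830.2 and 888, and Gabarap, from 744 and 339 to 1183 and 1198, rose. Gabarap gave 0.67 against replicate 1. Becn1, of the initiating lipid kinase complex, gave -0.62 and -0.31 against replicate 1, but its other probe sets gave 0.25, 0.09, 0.03 and -0.13. Its mean over probe sets was -0.09 (adjusted p = 0.499 by limma), and the call was lost without either AMN107-IFNa array. Of 27 lysosomal genes 7 rose and 5 fell (3 against replicate 1). Atp6v0d1, a proton pump subunit, rose from 182 and 222 to 494 and 487, the protease gene Ctsd from 416 and 286 to 571 and 519 and Gpnmb from 269.7 and 190.4 to 356 and 339.8. Gusb, a lysosomal glucuronidase, fell from 366 and 472 to 229 and 215.

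Of 30 G1/S and replication genes 13 fell and 2 rose, all called again against replicate 1, with a median of -0.35 (-0.22 against replicate 1). With array weights 8 members were called lower, beside 464 of all 12188 genes. In the 4-array fit 0 were, beside 40 of all genes, so that 0 is not particular to this list. Rrm2, the ribonucleotide reductase subunit, fell from 2949 and 3132 to 1795 and 1897, and its other probe sets gave -1.21 and, at lower signal, 0.27. Uhrf1, which maintains DNA methylation, fell from 836 and 1184 to 502 and 489 (a second probe set gave 0.18), and the licensing factor Cdc6 from 411 and 535 to 234 and 233. Ccne2 (cyclin E2) gave -1.07 over both arrays and -0.60 against replicate 1. Of 23 mitotic genes 9 fell and 3 rose, with a median of -0.29. For these and the replication genes, the shares over all genes were 14.8% lower and 11.3% higher. The kinase gene Aurka rose from 381 and 402 to 688 and 623. The kinesin gene Kif20a fell from 424 and 579 to 299.5 and 314, and Nusap1 (-0.65) and Bub1b (-0.65) fell mainly against the second IFNa array (-0.26 and -0.29 against replicate 1).

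Of 17 p53 targets 3 rose and 6 fell (2 and 5 against replicate 1). Ccng1, cyclin G1, fell from 425 and 487 to 163 and 191. Gadd45a, a stress sensor, rose from 145 and 187 to 289.6 and 313. Phlda3 gave 0.80 and Sesn1 -0.71, and 0.38 and -0.32 against replicate 1. Of 16 NRF2 targets 5 rose and 4 fell. Beside the lists of this paragraph, 11.3% of all genes rose and 14.8% fell. Hmox1 (heme oxygenase) rose from 133 and 201 to 253 and 375, and Nqo1, a quinone reductase, fell from 41.6 and 50.5 to 25.4 and 24.3. Gsr (glutathione reductase) gave -0.73, but another probe set gave 0.61, their mean was -0.06 (adjusted p = 0.58 by limma), and the call was lost without either AMN107-IFNa array. Gstm2 gave 0.71 but lost its call against replicate 1. Of 20 hypoxia and glycolysis genes 7 fell and 0 rose, all 7 also against replicate 1, with a median of -0.27. Egln3, an oxygen-sensing hydroxylase, fell from 120.3 and 139 to 51.9 and 49.9. Pdk1, which restrains pyruvate dehydrogenase, fell from 228 and 170.3 to 95.4 and 135. Ankrd37 had 96.5 and 43.6 on the IFNa arrays and 33.9 and 35.5 on the AMN107-IFNa arrays and did not pass with both controls (adjusted p = 0.0759 by limma).

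Some named genes also had other probe sets that disagreed in sign or by more than 1. Of those bright enough to be tested, Trim30a had one at 0.37, Acot2 at 0.53, Acly at 0.59, Nck1 at -0.25, Gusb at 0.05, Lats2 at 0.14, Col8a1 at 0.11, Abi1 at 0.04, Csf1r at -0.17 and Spred2 at 0.18 and 0.24. The dim ones, below the filter, were at -0.01 for Nck1, 0.06 for Acly, -0.03 for Elovl6, -0.18 for Fn1, 0.06 and 0.08 for Map3k20, -0.04 for Pdgfra, -0.07 for Pdia3, -0.14 for Pdia6, 0.12 for Sesn1 and 0.13 for Stat3. With the mean over a gene's probe sets the calls of Tlr4, Acly, Nck1, Bcar1, Spred2, Klf6, Col4a5, Mmp14, Timp2, Becn1, Hsp90b1, Uhrf1 and Gsr were lost and Vcam1 turned to 0.0135. Of the 122 named genes called, 35 lost the call without AMN107-IFNa replicate 1 and 26 without AMN107-IFNa replicate 2.

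**Figure D5:**
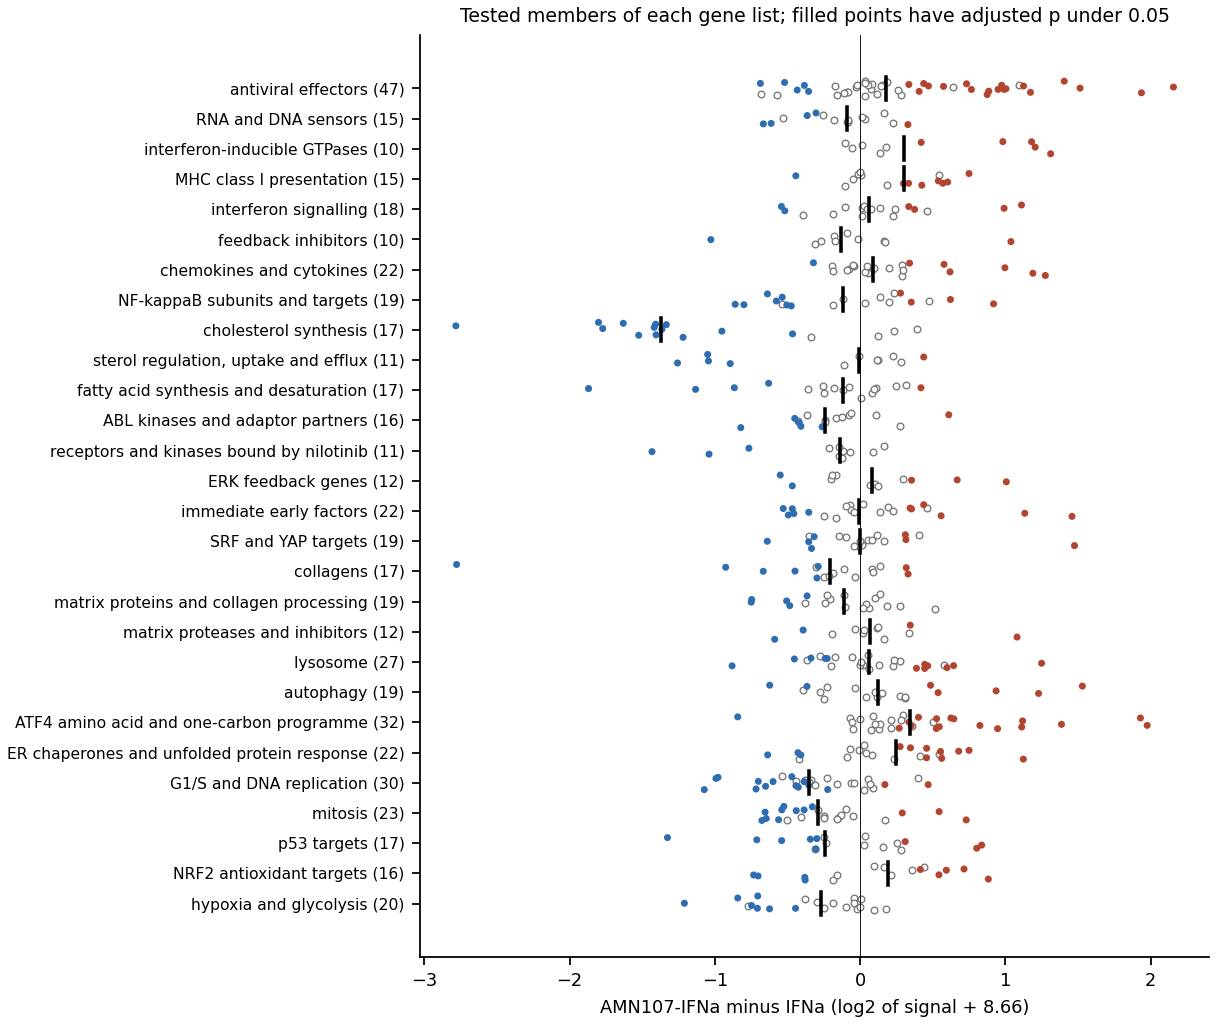
Each row is 1 gene list with the number of tested members, each point 1 member's AMN107-IFNa minus IFNa difference in log2 of (signal + 8.66), and the black bar the list's median. Red and blue points are called higher and lower and open points are not called; the cholesterol synthesis median lies at -1.37, and the other medians lie between -0.35 and 0.34.

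The summed signal of the 14 fibroblast markers was 10920 to 12730 on the IFNa arrays and 7716 to 7966 on the AMN107-IFNa arrays, and of 11 tested Col3a1, Pdgfrb and S100a4 were called, all lower. The median of the 11 was -0.20 and -0.07 against replicate 1. S100a4 alone, which made up most of the drop in the sum, fell from 5235 and 4700.2 to 2019.7 and 2071. In such bulk RNA, fewer cells of a type and less RNA per cell cannot be told apart. The 12 leukocyte markers on the array summed to 350.0 to 352.3 and 377.9 to 394.7, with 1 called (Fcgr3, 1.04). The endothelial sums were 154.9 to 164.9 and 158.8 to 167.5, with 0 called, and the epithelial sums 207.0 to 244.1 and 197.2 to 200.6, with Krt8 lower. The neuronal sums were 270.7 to 304.0 and 328.6 to 332.0, with Tubb3 higher (0.97). The muscle sums were 513.5 to 637.2 and 496.3 to 497.7, with Des and Tnnc1 higher and Tnnt2 lower. The fat and cartilage sums were 173.8 to 177.6 and 211.8 to 214.1, with Fabp4 higher. The part of other cell types in the differences was not tested, and the markers named here outside the leading genes were chosen after their values were seen.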

How the data were processed

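RNA of 12 arrays was analysed. The values that the authors deposited are intensities on a linear scale, 1 per probe set, and the submitters' processing notes name MAS5 with no version; its settings and scaling are not given in the sources used here, and the authors' build is not given either. Samples were grouped by title. Of 45101 probe sets, 64 controls were left out, the platform annotation gave 34945 a single gene, 932 several genes and 9160 no gene, and 34754 symbols were matched through gene IDs to RefSeq (GRCm38.p6), with 0 changed.

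Values were log2(signal + 8.66), 8.66 being the mean over arrays of the 25th percentile. Probe sets brighter than the median of their array were kept if this held on 2 or more arrays, and each gene's brightest was used (12188 genes). All 12 arrays were fitted with 1 mean per group in limma 3.58.1 (R 4.3.3; eBayes with a trend), two-sided, with Benjamini-Hochberg adjustment over all genes, and the fit was repeated without IFNa replicate 2. SE is limma's. The spread that all groups share is narrower than that of the IFNa arrays, so tests that use them can call too many genes. The number of arrays limits the precision. Arrays have no read depth.

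Genes named were the 15 largest rises and 12 largest falls called in both fits with no overlap of arrays, up to 4 members of each list by size of difference, 8 drug targets, and the 4 largest differences each way between states; other probe sets are given where they disagree in sign or by more than 1. Members of short counts were named after their values were seen. The members and the lists were chosen with earlier results of these data known. Replicate numbers are not said to link groups: over 15 pairs of groups the arrays' deviations correlated from -0.143 to 0.312, so the number was not used as a pairing. Promoters came from a RefSeq table, which held 9856 of the 12188 genes. Alternatives covered scaling, filter, pseudocount, probe set rule, trend, weights, the replicate block and leaving out each array.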

Additional observations from a re-analysis of the deposited data

Results flagged for a closer look

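The AMN107 effect with IFNa differed from that without interferon, by the test of the difference itself (limma, adjusted over all genes), for 9 of the genes named. The difference, effect with IFNa minus effect without, was -2.95 for Gbp2, -2.92 for Usp18, -2.73 for Gbp2b, -2.48 for Mndal and -2.23 for Trim30a. It was -1.47 for Dhx58, -1.25 for Igtp, -1.19 for Irgm2 and -0.77 for Ifih1. Adjusted p ran from 0.000192 for Gbp2 to 0.02 for Ifih1 (limma). In all 9 the effect was the lower one with IFNa. All are interferon-stimulated genes by common knowledge.

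Against the effect with IFNg, 16 named genes differed. Those with the lower effect under IFNa were Ifi44l (-2.38), Phf11d (-2.37), Mx1 (-1.76), Trim30a (-1.70), Dhx58 (-1.57), Ifit3 (-1.41), Ifih1 (-1.20) and Ifit1 (-0.84). Those with the higher effect under IFNa were BC023105 (2.04), Arpc4 (1.57), Igtp (1.21), Aamp (1.10), Irgm2 (1.03), Ankrd1 (1.02), Aurka (0.79) and Babam2 (0.70). Adjusted p ran from 0.00169 for Ifi44l to 0.0381 for Aurka (limma). Arpc4 and Aamp had IFNa replicate 2 well below replicate 1, and the other probe set of Arpc4 gave 0.36 for the AMN107 effect with IFNa.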

How the results depend on the processing

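With 2 arrays a group, counts of calls moved with the arrays used. Against 3173 called genes, the fit of the 4 arrays alone gave 98 and array weights 988, and leaving out 1 array gave 1333 to 6189. The 2-fold count of 231 became 88 with 4 arrays and 193 to 627 without 1 array. The count of 2729 called in both fits became 98, 969 and 1322 to 4212 in the same order, and could not be computed without IFNa replicate 1. Leave-outs that leave 1 array in a group assume that it varies like the others. The difference from the effect without interferon (25 genes) ran from 11 to 5771 without 1 array, and that from the effect with IFNg (56) from 5 to 4946, with 33 under array weights. Antiviral members higher (19) were 6 with 4 arrays and 12 to 25 without 1 array. Cholesterol members lower (13) were 8 with 4 arrays, ATF4 members higher (16) were 2 and, with array weights, 10, and replication members lower (13) were 0 and 8, and 7 to 18 without 1 array. Over all 12188 genes the 4-array fit called 58 higher and 40 lower, and array weights 524 and 464. Averaging a gene's probe sets reversed Vcam1 (0.0135) and Abl2 (0.30). With the replicate block 3212 genes were called, 235 of them 2-fold and 2676 in both fits, and the differences numbered 25 and 54. It ended none of the calls of named genes and added 3. Of 122 named genes called, 79 kept the call under all of the 23 alternatives other than the 4-array fit, where 88 lost it, and array weights, where 32 did. Quantile normalization, median centring, the other pseudocounts and the filters left the total called counts within 1.5 times of the main ones, but the split of the 56 (20 higher, 36 lower) became 25 and 21 with median centring. The causes of the changes listed were not tested.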

Other observations

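Ifi27l2a, a small interferon-induced mitochondrial protein gene, named after its values were seen, fell from 73.2 and 45.9 to 14.1 and 15.8, although most changed antiviral genes rose. Its difference was -1.50 over both IFNa arrays and -1.80 against replicate 1, -0.84 without interferon and -0.58 with IFNg.

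Psmd8, a proteasome subunit, likewise chosen after its values were seen, had 1266 and 405 on the IFNa arrays and 2122 and 2119 on the AMN107-IFNa arrays. The difference was 1.55 over both IFNa arrays and 0.74 against replicate 1.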
